A study of Mus musculus with 18 samples.

Results

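The regions described here are the accessible chromatin around 6 matrix metalloproteinase genes (Mmp8, Mmp9, Mmp12, Mmp13, Mmp14 and Mmp19) and around Timp1, which encodes an inhibitor of these enzymes, in bone marrow-derived macrophages (BMDMs). A peak was a member if it overlapped a gene body or the 25 kb on either side of it (mm9, GENCODE M1). This gave 112 of the 194284 peaks of the series. Mmp14 had 25 peaks, Mmp19 had 21, Mmp9 had 20, Mmp8 had 15, Mmp12 had 14, Mmp13 had 11 and Timp1 had 6. No peak fell in the windows of 2 members, and all 112 passed the filter on low counts. BMDMs were grown for 6 days from marrow of 12-week-old male Il10-/- mice, with L929-conditioned medium as the source of growth factor, so the cells of every group, controls included, lacked the Il10 gene and no wild-type cells are compared here. The 6 groups of 3 ATAC-seq libraries were Unstimulated (no drug, cytokine or LPS), JQ1 (500 nM of the BET bromodomain inhibitor (+)-JQ1), IL10 (10 ng/mL of the cytokine), LPS (50 ng/mL of the bacterial cell wall component for the last 4 h), LPS + JQ1 and LPS + IL-10. The drug or the cytokine was given 12 h before LPS and kept for 16 h in all. The cells came from 3 mice and the samples are described as matched, but the labels give each library only a replicate number and do not say that 1 number is 1 mouse in every group, so libraries are named here by replicate and p-values measure the spread between them.

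Matrix metalloproteinases are zinc-dependent enzymes that cut collagens, elastin and other proteins of the extracellular matrix as well as cytokines and receptors at the cell surface. Most are secreted as inactive precursors and some are held at the membrane. Tissue inhibitors of metalloproteinases, TIMP1 among them, bind the active site and block it. Macrophages are a major source of several of these enzymes, and bacterial products, acting through NF-kappaB and AP-1 factors, are known inducers of some of the genes. BET proteins read acetylated histones at active promoters and enhancers, IL-10 signals mainly through STAT3, and ATAC-seq counts transposase insertions, which mark open DNA and not transcription.

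In this text a peak is named by its gene and the distance of its centre from the annotated gene start, so that the Mmp14 +14.0 kb peak lies beyond the 3' end of Mmp14 and the Mmp8 -0.234 kb peak spans the Mmp8 start. The sequences below are the 300 bases at the centre of peaks that carry the strongest changes with LPS or with a pretreatment under LPS, read from the plus strand of mm9, which is also the coding strand of all 7 genes. They are in lower case. Capitals mark any match, on either strand, to 5 motifs: AP-1 (TGANTCA), kappaB (GGG, a purine, any 3 bases, a pair of pyrimidines, CC), IRF (GAAA, any 2 bases, GAAA), STAT (TTCNNNGAA) and PU.1 (GAGGAAGT).
Mmp14 +14.0 kb (chr14:55064247-55064546): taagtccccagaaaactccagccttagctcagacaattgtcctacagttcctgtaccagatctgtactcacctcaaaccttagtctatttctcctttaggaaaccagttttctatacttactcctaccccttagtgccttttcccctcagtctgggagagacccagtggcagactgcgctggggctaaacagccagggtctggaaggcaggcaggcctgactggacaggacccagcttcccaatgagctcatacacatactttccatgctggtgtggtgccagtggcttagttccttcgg
Mmp9 +8.67 kb (chr2:164774797-164775096): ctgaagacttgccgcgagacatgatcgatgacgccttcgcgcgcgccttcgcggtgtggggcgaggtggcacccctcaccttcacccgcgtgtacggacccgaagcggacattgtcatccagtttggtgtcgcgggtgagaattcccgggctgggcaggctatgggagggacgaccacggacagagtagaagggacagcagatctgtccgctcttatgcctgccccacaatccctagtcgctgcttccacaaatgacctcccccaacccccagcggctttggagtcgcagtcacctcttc
Mmp9 +21.3 kb (chr2:164787402-164787701): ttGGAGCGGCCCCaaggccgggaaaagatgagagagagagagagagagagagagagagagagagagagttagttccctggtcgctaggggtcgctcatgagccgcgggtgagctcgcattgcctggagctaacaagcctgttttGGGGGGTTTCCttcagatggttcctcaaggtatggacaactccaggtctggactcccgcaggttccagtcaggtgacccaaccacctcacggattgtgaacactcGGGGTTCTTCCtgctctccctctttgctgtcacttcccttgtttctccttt
Mmp13 +11.8 kb (chr9:7284204-7284503): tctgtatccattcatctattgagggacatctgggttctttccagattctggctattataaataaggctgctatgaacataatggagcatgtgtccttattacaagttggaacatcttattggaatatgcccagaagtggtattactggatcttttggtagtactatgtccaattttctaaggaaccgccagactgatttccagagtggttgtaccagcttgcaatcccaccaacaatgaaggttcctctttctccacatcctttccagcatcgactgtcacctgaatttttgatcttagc
Mmp8 -0.234 kb (chr9:7558046-7558345): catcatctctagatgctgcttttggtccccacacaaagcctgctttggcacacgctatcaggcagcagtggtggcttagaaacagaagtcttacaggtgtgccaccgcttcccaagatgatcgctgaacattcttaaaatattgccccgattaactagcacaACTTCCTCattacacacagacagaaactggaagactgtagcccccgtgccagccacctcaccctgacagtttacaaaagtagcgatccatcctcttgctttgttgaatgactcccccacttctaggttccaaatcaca
The Mmp14 and Mmp13 windows hold no annotated exon, and the Mmp9 +8.67 kb window includes coding sequence of Mmp9. The Mmp9 +21.3 kb window also holds no annotated exon and lies within Slc12a5, in a peak that spans a start of that gene. The Mmp9 +21.3 kb window holds 3 kappaB matches, the Mmp8 window holds 1 PU.1 match, and the other 3 windows hold no match to the 5 motifs. Cut into pieces of 50 bases, 4 of the 5 windows occur once in mm9 throughout, whereas 1 of the 6 pieces of the Mmp13 +11.8 kb window occurs 56 times. The centre of the Mmp14 +9.28 kb peak, which changed most with LPS, lies in the untranslated end of Mmp14 and is not printed. Some of these peaks are several kb wide, and the centre of a merged peak need not be its summit.

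The libraries held between 12020526 and 25908198 counts in peaks, and a member peak held a median of 46 counts in a library (2 to 1762). The 3 unstimulated libraries had the highest scaling factors as a group, 1.04 to 1.24 against 0.896 to 1.05 in the other 15. All 9 macrophage markers examined had a peak at their promoter, while the defining T cell markers Cd3e, Cd3g, Cd4 and Cd8a, the neutrophil markers Ly6g, S100a9 and Ngp and the stromal markers Col1a2, Col3a1, Dcn and Lum had none. Of the longer marker lists, 1 of 5 T cell, 3 of 7 fibroblast or stroma, 6 of 9 neutrophil and 4 of 4 dendritic cell markers had a promoter peak. The summed CPM (read counts relative to the scaled size of the library) at macrophage marker promoters ranged from 203 to 302 in the unstimulated libraries, 355 to 385 with JQ1, 330 to 358 with IL-10, 290 to 306 with LPS, 329 to 365 with LPS + JQ1 and 298 to 339 with LPS + IL-10. The neutrophil sum was 36.3 to 52.1 in unstimulated and 48.2 to 55.0 in LPS libraries, and 57.7 to 63.6 with IL-10 and 62.3 to 71.8 with LPS + IL-10. The fibroblast or stroma sum, from the 3 markers with a peak, rose without overlap from 53.3 to 58.0 in unstimulated to 67.5 to 74.5 in LPS libraries and was 54.3 to 64.5 with LPS + JQ1 and 60.6 to 64.9 with LPS + IL-10, the direction of the called LPS rises and JQ1 falls at Mmp14, Mmp9 and Mmp13. The 1 T cell marker with a peak went from 14.2 to 23.2 in unstimulated to 25.4 to 30.6 in LPS, 26.7 to 29.6 in LPS + JQ1 and 21.5 to 25.96 in LPS + IL-10 libraries, and the dendritic cell sum from 31.3 to 42.3 in unstimulated to 44.7 to 49.4 in LPS libraries. The part of these shifts in the comparisons was not tested. The 3 peaks over Il10 summed to 11.7 to 27.3 CPM and do not check the genotype. In bulk libraries a change in the share of cells with an open site and a change in how open it is per cell cannot be told apart.

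The 12 peaks below overlapped the 1000 bases before to 100 bases after a coding transcript start of a member. They show how open these starts were before any stimulus. Per kb of peak, the Mmp12 +1.43 kb peak, before an internal start of Mmp12, was at 4.25 ± 0.943 CPM in unstimulated cells (SD, n = 3). The Mmp14 start was at 3.58 ± 0.176, Mmp13 at 3.03 ± 0.473, Mmp9 (-4.88 kb) at 2.94 ± 0.191, Mmp8 at 2.92 ± 0.214 and Mmp19 at 2.86 ± 0.306. Neighbours in that order overlapped within their SD. The Mmp12 peak over the gene start (-0.419 kb, 1696 bases) held 3.75, 5.33 and 4.77 CPM in the unstimulated libraries, not scaled per kb. The other peaks at or before internal starts were lower than those ranked, with the Mmp9 +8.67 kb peak at 2.47 ± 0.349, the Mmp9 +5.80 kb peak at 1.69 ± 0.228 and the Mmp12 +2.99 kb peak at 1.61 ± 0.115. The Timp1 start was among the least open, at 1.65 ± 0.696 for the peak over the start and 0.334 ± 0.113 for the peak 1 kb before it. After LPS the Mmp14 start led at 5.88 ± 0.591 CPM per kb, followed by the Mmp9 +8.67 kb peak at 5.09 ± 0.701 and the Mmp9 -4.88 kb peak at 4.34 ± 0.496. The SD ranges of neighbours in that order overlapped. Mmp8 stood at 2.64 ± 0.184, Mmp19 at 2.55 ± 0.197 and the Timp1 start at 2.01 ± 0.852. With LPS + IL-10 the Mmp14 start reached 7.92 ± 0.366, although the peak was not called in that comparison.

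**Figure D1:**
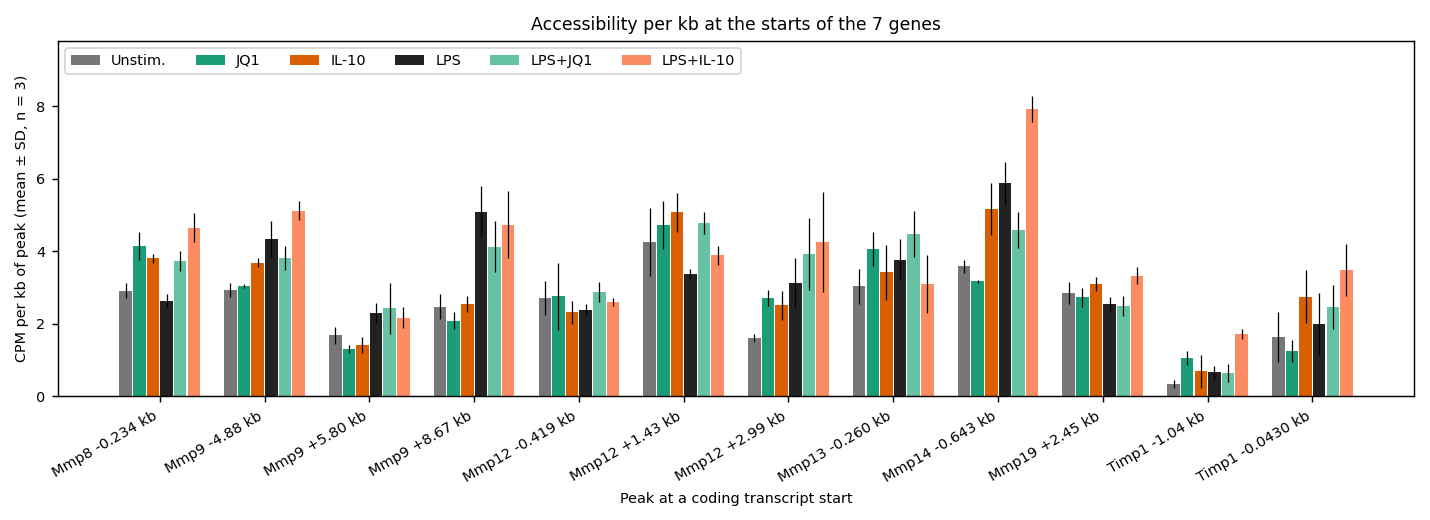
CPM per kb of peak (vertical axis, mean with SD bars, n = 3) for the 12 peaks at a coding transcript start (horizontal axis), coloured by condition. The Mmp14 start peak rises from 3.58 in unstimulated to 7.92 CPM per kb in LPS + IL-10 libraries, while the Timp1 peak at -1.04 kb is the lowest of the 12 in each group.

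Differential accessibility was tested for all 194230 peaks that passed the filter with edgeR's quasi-likelihood test, and a peak was called at a Benjamini-Hochberg adjusted p under 0.05 and an absolute log2 fold-change above 0.5. Adjusted p values below are from that test and SE is its standard error. With LPS against unstimulated cells, 25 of the 112 member peaks were higher and 3 lower, or 22.3% and 2.68%, where 11.7% and 10.2% of all peaks tested were called in those directions. The median log2 fold-change was 0.29 over the members and -0.03 over all peaks. With scaling to total counts, which moved the median of all peaks to -0.26, the split was 14 higher and 12 lower. Of the 194230 peaks tested, 12785 were then called higher and 37571 lower. In the main scaling, the 3 member falls were 1 without the LPS library of replicate 2. Mmp14 supplied 11 of the rises, Mmp9 7, Mmp13 3, Mmp12 2, and Mmp8 and Mmp19 1 each. With LPS + JQ1 against LPS, 6 member peaks were higher and 8 lower, against 1.74% and 3.49% of all peaks. The rises lay at Mmp12 (4), Mmp8 (1) and Timp1 (1), and the falls at Mmp14 (4), Mmp9 (2) and Mmp13 (2). With LPS + IL-10 against LPS, 10 were higher and 1 lower, against 4.26% and 4.51% of all peaks, with medians of 0.16 for the members and -0.01 for all peaks. Those rises lay at Mmp14 (4), Mmp8 (3), Timp1 (2) and Mmp12 (1). Without replicate 1, 2 or 3, LPS + JQ1 called 2 and 7, 0 and 4, and 4 and 3 peaks higher and lower, and LPS + IL-10 called 4, 3 and 7 higher. Single libraries mattered as well, LPS + JQ1 calling 3 higher without the LPS library of replicate 3 or the LPS + JQ1 library of replicate 1 and 3 lower without the LPS + JQ1 library of replicate 3, and LPS + IL-10 calling 4 higher without its library of replicate 1 and 6 without the LPS or the LPS + IL-10 library of replicate 2.

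In cells without LPS, JQ1 raised 13 member peaks and lowered 3 (7.85% and 3.15% of all peaks), and IL-10 raised 13 and lowered 2 (5.16% and 3.5%). These 2 comparisons depended on how the libraries were scaled. With loess offsets, which follow the mean count of a peak, the counts were 5 higher and 4 lower for JQ1 and 2 higher and 0 lower for IL-10. Of all peaks, loess offsets called 2737 higher and 4142 lower for JQ1 and 2956 and 2856 for IL-10. The main fit called 15247 and 6125 for JQ1 and 10021 and 6793 for IL-10. With total counts the member counts were 4 and 10 for JQ1 and 5 and 4 for IL-10, with the medians of all peaks at -0.37 and -0.26. All peaks then gave 3828 higher and 27370 lower for JQ1 and 2464 and 16658 for IL-10. With promoter and distal peaks fitted apart the members gave 8 and 7 for JQ1. Without replicate 2 they gave 5 and 1 for JQ1 and 3 and 1 for IL-10. The test of whether JQ1 changed the response to LPS called 0 peaks higher and 4 lower (0.649% and 3.19% of all peaks), and the same test for IL-10 called 0 higher and 6 lower (2.01% and 5.9%). At an unadjusted p under 0.05 there were 3 higher and 16 lower for JQ1 and 7 and 13 for IL-10, and DESeq2 called 0 and 11 and 0 and 9. Of the 194284 peaks, DESeq2 called 790 higher and 9935 lower for JQ1 and 2497 and 12863 for IL-10. The counts of all peaks at an unadjusted p were not worked out. Without replicate 2 both interactions called 0 members lower, and without the unstimulated library of replicate 3 they called 11 and 12 members lower. The 2 pretreatments share the LPS and the unstimulated libraries, so their values are given side by side and not as independent comparisons.

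**Figure D2:**
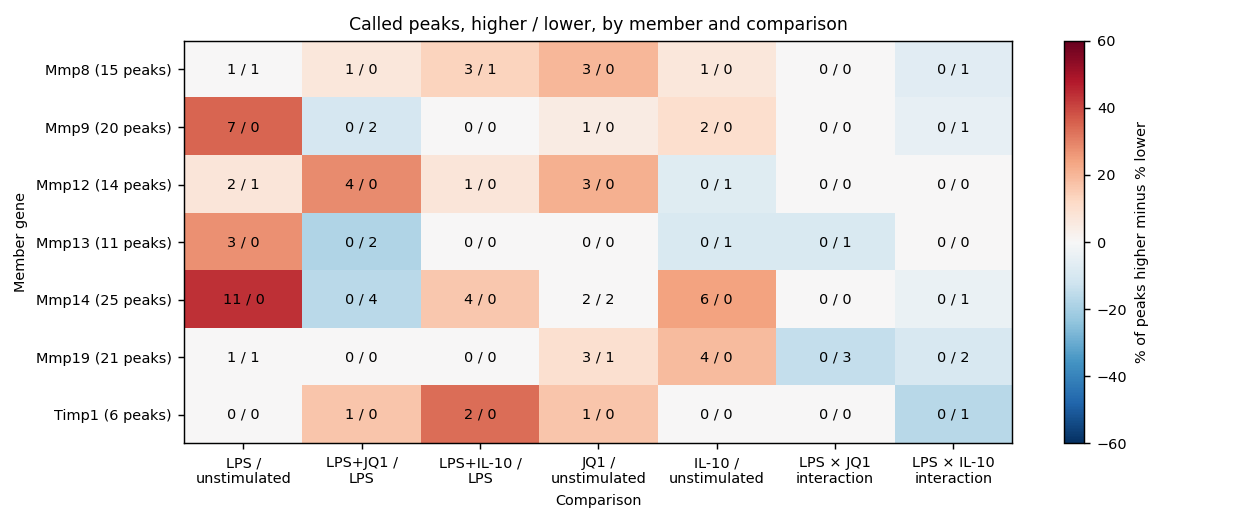
Number of called peaks, higher / lower, for each member (rows, with its number of peaks) and comparison (columns); the colour is the percentage higher minus the percentage lower. Mmp14 has 11 and Mmp9 has 7 peaks higher with LPS, and the 4 called changes of Mmp12 with LPS + JQ1 are all rises.

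Mmp14 encodes a membrane-anchored enzyme that cuts collagen at the cell surface and activates the precursor of MMP2. Its region (ENSMUSG00000000957.8, chr14:55050441-55060095) had the strongest response to LPS of the 7, with 11 of 25 peaks higher, none lower and a median log2 fold-change of 0.59. The +9.28 kb peak, 4819 bases over the last exons and the 3' end of the gene, held 10.6, 11.1 and 10.4 CPM in the unstimulated libraries of replicates 1 to 3 and 37.0, 35.9 and 35.0 CPM with LPS. The groups were far apart, a log2 fold-change of 1.75 (SE 0.14, adjusted p = 5.1e-19). The next peak downstream, at +14.0 kb, rose from 11.3, 9.62 and 9.54 CPM to 29.3, 29.2 and 22.4 CPM (log2 fold-change 1.41, SE 0.15, adjusted p = 2.4e-13). The rise was shared by the peaks at +17.1 kb (0.99), +18.6 kb (1.24) and +20.8 kb (1.26) beyond the gene and at -14.3 kb (1.40, adjusted p = 2.1e-09), near Slc7a7, which encodes an amino acid transporter. The start peak of Mmp14 itself moved less, from 15.2, 14.9 and 16.3 CPM to 23.0, 25.0 and 28.1 CPM, without overlap (log2 fold-change 0.71, SE 0.14, adjusted p = 2.3e-05). This call at the start was lost with scaling to total counts (0.48) and with loess offsets (0.40), and the calls at +9.28, +14.0 and -14.3 kb held under every fit tried.

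JQ1 before LPS lowered 4 Mmp14 peaks and raised none. At +14.0 kb the LPS + JQ1 libraries held 17.4, 8.95 and 11.6 CPM against 29.3, 29.2 and 22.4 CPM with LPS alone, which is a log2 fold-change of -1.12 (SE 0.15, adjusted p = 9.8e-09) and brings 2 of the 3 libraries to near the unstimulated values. JQ1 alone also lowered this peak, to 6.08, 7.28 and 6.17 CPM (-0.64, SE 0.17, adjusted p = 0.0036), a call lost without replicate 1 (-0.51). The +20.8 kb peak fell by 0.99 on the log2 scale with LPS + JQ1 (adjusted p = 0.00019) and the -14.3 kb peak by 0.81 (adjusted p = 0.0011). The +9.28 kb peak held 32.5, 20.8 and 22.2 CPM, replicate 1 lying well above the other two, and fell by 0.53 (adjusted p = 0.007). That last call was lost without replicate 2 (-0.41) or replicate 3 (-0.46), or without the LPS + JQ1 library of either (-0.41 and -0.44), and the call at -14.3 kb was lost without replicate 2 (-0.72) or the LPS + JQ1 library of replicate 3 (-0.59). The start peak held 21.7, 20.2 and 17.5 CPM and was not called (-0.36, adjusted p = 0.105).

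IL-10 moved Mmp14 the other way. With LPS + IL-10 against LPS, 4 of the 25 peaks were higher and 0 lower, at -25.5 kb (0.55), -6.24 kb (0.68), +20.8 kb (0.60) and +30.9 kb (0.78). At the start the LPS + IL-10 libraries held 35.6, 32.4 and 34.5 CPM, all above the LPS libraries, but the log2 fold-change of 0.43 (adjusted p = 0.020) fell short of the fold limit. At +14.0 kb they held 41.8, 37.1 and 33.1 CPM, again above all 3 LPS libraries. IL-10 alone raised 6 peaks and lowered 0, among them the +9.28 kb peak to 18.1, 20.6 and 19.0 CPM (0.85, SE 0.15, adjusted p = 2.5e-05) and the start peak to 25.8, 20.1 and 20.9 CPM (0.52, adjusted p = 0.0065). At +9.28 kb the LPS + IL-10 libraries held 36.9, 39.7 and 37.2 CPM, next to 37.0, 35.9 and 35.0 CPM with LPS, and the interaction was negative (-0.77, SE 0.20, adjusted p = 0.0059). The start call with IL-10 alone was lost without replicate 1 (0.41) or 2 (0.56), without the unstimulated library of replicate 2 (0.49) or the IL-10 library of replicate 1 (0.42), and under 4 of 10 other fits, and the interaction call without replicate 2 (-0.77), with total counts (-0.49) and with loess offsets (-0.36). The Mmp14 window also reaches Slc7a7, Mrpl52, Gm11067 and Lrp10, and peaks cannot be assigned to a gene from accessibility.

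Mmp9 encodes gelatinase B, a secreted enzyme that cuts denatured collagen and type IV collagen of basement membranes. At Mmp9 (ENSMUSG00000017737.2, chr2:164766280-164781350) LPS raised 7 of 20 peaks and lowered 0, with a median log2 fold-change of 0.44. The widest member peak, 15384 bases from upstream to past the Mmp9 start (centre at -4.88 kb), held 45.0, 42.4 and 48.2 CPM in unstimulated and 71.7, 70.6 and 57.9 CPM in LPS libraries, without overlap (0.56, SE 0.13, adjusted p = 0.00048). This call ended with total counts (0.33), with loess offsets (0.07), with a minimum of 10 counts in every library (0.48), with promoter peaks tested apart (0.39) and without replicate 2 (0.47). At 2 of the peaks inside the gene, +8.67 and +11.9 kb, the change was larger and was called under every fit. The +5.80 kb peak, before the internal start that the +8.67 kb peak covers, was not called (0.46, adjusted p = 0.162). The +8.67 kb peak, which covers exons and an internal coding start, rose from 12.1, 9.62 and 9.43 CPM to 21.1, 24.3 and 18.5 CPM (1.05, SE 0.15, adjusted p = 7.9e-09). The +11.9 kb peak rose from 7.56, 5.55 and 6.08 CPM to 13.5, 13.2 and 11.8 CPM (1.02, SE 0.16, adjusted p = 1.5e-07). Both were called in each of the fits with 1 replicate or 1 library left out. Beyond the gene, the +21.3 kb peak at the start of Slc12a5, a neuronal chloride transporter gene, rose without overlap, from 8.77, 8.63 and 9.75 CPM to 18.1, 16.3 and 18.2 CPM (0.95, SE 0.15, adjusted p = 9e-08).

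JQ1 before LPS lowered the Mmp9 +11.9 kb peak to 9.21, 9.44 and 7.33 CPM (-0.58, SE 0.15, adjusted p = 0.0082), below all LPS libraries. Replicate 3 was then within the unstimulated range of 5.55 to 7.56 CPM and the other two above it. JQ1 before LPS also lowered the +32.4 kb peak, which lies beyond the end of Mmp9 and over an exon of Slc12a5. It held 4.30, 4.20 and 3.99 CPM, down from 8.64, 5.64 and 5.02 CPM with LPS (-0.64, adjusted p = 0.023). The first call was lost without replicate 2 (-0.63) or 3 (-0.52), without the LPS library of replicate 1 (-0.55) or the LPS + JQ1 library of replicate 3 (-0.46). The second rested largely on the LPS library of replicate 1, without which the log2 fold-change was -0.36, and was also lost without any of the 3 replicates (-0.75 to -0.39) or the LPS + JQ1 library of replicate 2 (-0.65) or 3 (-0.61). The +8.67 kb peak held 20.3, 14.5 and 17.0 CPM with LPS + JQ1 and was not called (-0.31, adjusted p = 0.218). LPS + IL-10 against LPS called 0 of the 20 Mmp9 peaks in edgeR and in DESeq2, with 0 higher and 2 lower at an unadjusted p under 0.05, and the start peak held 81.2, 74.0 and 80.9 CPM, above the 3 LPS libraries but at a log2 fold-change of 0.24 (adjusted p = 0.259). IL-10 alone raised the +32.4 kb peak to 6.15, 6.22 and 6.06 CPM from 2.88, 3.13 and 4.05 CPM (0.86, adjusted p = 0.0015), and the interaction of LPS with IL-10 there was -1.002 (SE 0.27, adjusted p = 0.008). The first of these calls was lost without replicate 2 (0.80), and the interaction without replicate 1 (-0.52) or 2 (-1.16), without the LPS library of replicate 1 (-0.72) and with total counts (-0.73). The Mmp9 window also reaches Slc12a5, and its peaks cannot be assigned to a gene from accessibility.

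Mmp13 and Mmp8 encode collagenases, MMP13 with a broad range that includes cartilage collagen and MMP8 as the enzyme stored in neutrophil granules. Mmp13 (ENSMUSG00000050578.9, chr9:7272514-7283333) was the least open of the 7 per kb in unstimulated cells, with its 11 peaks at 1.75 ± 0.139 CPM per kb in unstimulated and 2.57 ± 0.272 in LPS libraries. Its start peak was not called in any comparison, with 3.75, 3.68 and 2.79 CPM in unstimulated and 4.59, 3.50 and 4.60 CPM in LPS libraries. LPS raised 3 other peaks. The -11.0 kb peak of Mmp13 held 2.88, 1.76 and 1.21 CPM in unstimulated and 4.32, 2.85 and 2.99 CPM in LPS libraries, which overlap (0.83, SE 0.26, adjusted p = 0.013), a call lost with total counts (0.58) and in 5 of 21 fits that left out libraries (0.57 to 1.20 over the 21). The +11.8 kb peak, which begins at the last bases of Mmp13 and runs downstream, rose from 2.61, 1.15 and 0.712 CPM to 4.82, 4.99 and 3.94 CPM with LPS, without overlap (1.66, SE 0.27, adjusted p = 4.9e-07). With LPS + JQ1 it held 1.61, 1.58 and 1.75 CPM, within the range of the unstimulated libraries (-1.47 against LPS, SE 0.26, adjusted p = 2.3e-05). Both calls held under every fit and every library left out. JQ1 alone left it at 1.31, 1.40 and 1.36 CPM, and the interaction of LPS with JQ1 was -1.38 (SE 0.41, adjusted p = 0.038), a call that ended under 3 of the 9 other fits that gave an adjusted p and in 12 of the 21 fits that left out a replicate or a library.

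The Mmp13 +7.18 kb peak over internal exons also rose with LPS and fell with LPS + JQ1. It held 3.41, 1.87 and 1.70 CPM in unstimulated, 4.27, 4.09 and 3.46 CPM in LPS and 1.92, 2.29 and 1.40 CPM in LPS + JQ1 libraries. The fall with LPS + JQ1 was -1.10 (SE 0.26, adjusted p = 0.0026) and was lost without replicate 3 (-0.98) or its LPS + JQ1 library (-0.90). The rise with LPS was 0.79 (adjusted p = 0.016) and was lost with total counts (0.54), without replicate 2 (0.62) or 3 (0.68) and without the unstimulated library of replicate 2 (0.65) or 3 (0.60) or the LPS library of replicate 1 (0.72). LPS + IL-10 against LPS called 0 of the 11 Mmp13 peaks in edgeR and in DESeq2, with 0 higher and 3 lower at an unadjusted p under 0.05. The +11.8 kb peak held 2.79, 2.09 and 3.58 CPM there, below all 3 LPS libraries and above the 3 LPS + JQ1 libraries. These peaks hold few counts, and their precision is lower than at Mmp14 and Mmp9.

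Mmp8 (ENSMUSG00000005800.2, chr9:7558429-7568486) did not open at its start with LPS. The start peak, 3960 bases, held 10.6, 12.3 and 11.7 CPM in unstimulated and 9.97, 11.3 and 10.1 CPM in LPS libraries (-0.15, adjusted p = 0.489). It was higher with IL-10 under LPS, at 18.7, 19.8 and 16.7 CPM, above every unstimulated and LPS library (0.81 against LPS, SE 0.14, adjusted p = 5.3e-06). This call held under each change of fit and each library left out. The +13.2 kb peak at the start of the neighbouring Mmp27, another member of the protease family, rose alike from 12.9, 12.1 and 12.7 CPM to 22.1, 21.6 and 21.4 CPM (0.79, SE 0.14, adjusted p = 1e-05). The neutrophil marker sum was higher as well, at 62.3 to 71.8 CPM with LPS + IL-10 and 48.2 to 55.0 CPM with LPS. Its part in these 2 rises was not tested. JQ1 under LPS also raised the +13.2 kb peak, to 20.4, 18.1 and 17.5 CPM (0.57, adjusted p = 0.0041), a call lost with loess offsets (0.50) and without replicate 2 (0.56). The start peak stood at 15.8, 13.6 and 14.97 CPM with LPS + JQ1, above the LPS libraries, at a log2 fold-change of 0.50 that missed the limit (adjusted p = 0.017). The -10.6 kb peak, upstream of the gene, was higher with LPS and lower with IL-10 before LPS. It held 2.01, 1.59 and 1.26 CPM in unstimulated, 4.92, 4.20 and 3.40 CPM in LPS (1.38, SE 0.28, adjusted p = 5.1e-05) and 3.50, 1.45 and 1.84 CPM in LPS + IL-10 libraries, which overlap the LPS range (-0.88, adjusted p = 0.016). The latter was the only called fall with LPS + IL-10 among the 112 peaks and was lost in DESeq2 and without replicate 2 (-0.66) or 3 (-0.86), the LPS library of replicate 1 (-0.74) or the LPS + IL-10 library of replicate 2 (-0.66) or 3 (-0.74). Without LPS, the +9.04 kb peak over the last exons of Mmp8 rose from 10.1, 11.5 and 13.3 CPM to 20.04, 20.03 and 19.1 CPM with JQ1 (0.76, adjusted p = 2.9e-05) and to 17.9, 18.1 and 20.2 CPM with IL-10 (0.69, adjusted p = 0.00047), both lost with total counts (0.48 each) and loess offsets (0.40 and 0.39), and the latter also without replicate 2.

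Mmp12 encodes macrophage metalloelastase, the enzyme with which macrophages degrade elastin. Mmp12 (ENSMUSG00000049723.8, chr9:7344381-7369499) had 4 of 14 peaks higher and 0 lower with LPS + JQ1 against LPS and 3 higher and 0 lower with JQ1 alone. All but 1 of these calls lay upstream of the gene, and that one was the intronic +1.43 kb peak, before an internal coding start. It held 6.34, 6.84 and 6.87 CPM in LPS and 9.06, 10.2 and 9.27 CPM in LPS + JQ1 libraries, without overlap (0.51, SE 0.16, adjusted p = 0.037), a call lost in 8 of 21 fits that left out libraries (0.46 to 0.55 over the 21) and under 3 of 10 other fits. JQ1 alone also raised peaks at Mmp8 (3), Mmp19 (3), Mmp14 (2), Mmp9 (1) and Timp1 (1). The -12.1 kb peak held 8.16, 9.67 and 12.0 CPM in unstimulated and 20.5, 18.2 and 16.9 CPM in JQ1 libraries (0.89, SE 0.15, adjusted p = 3.2e-06). The -7.29 kb peak held 9.37, 11.4 and 15.4 CPM and then 23.4, 22.6 and 20.6 CPM (0.88, SE 0.15, adjusted p = 4.2e-06). Neither call was lost to a change of scaling, loess offsets included, or to a library left out, and the -14.1 kb peak rose too (0.76, adjusted p = 0.0051), though not with total counts (0.49) or without replicate 2 (0.67). At these 3 peaks the unstimulated libraries rose from replicate 1 to 3, the order of their macrophage marker sums (203, 241 and 302 CPM). Those sums were 355 to 385 CPM with JQ1, and the part of this in the result was not tested. Under LPS the same 3 peaks were higher with JQ1, by 0.50 at -12.1 kb (adjusted p = 0.016), 0.59 at -7.29 kb (adjusted p = 0.0047) and 0.76 at -14.1 kb (adjusted p = 0.019). At -7.29 kb the LPS + JQ1 libraries held 22.7, 19.2 and 15.2 CPM and the LPS libraries 11.4, 11.6 and 14.7 CPM, so that the lowest LPS + JQ1 library was near the highest LPS library. These calls under LPS were less firm. The -7.29 kb call was lost without replicate 1 (0.39) or 2 (0.53), the LPS library of replicate 1 (0.53) or its LPS + JQ1 library (0.45). The -14.1 kb call was lost without replicate 1 (0.60) or 2 (0.75), the LPS library of replicate 1 (0.64) or the LPS + JQ1 library of replicate 2 (0.67). The -12.1 kb call was lost in 6 of 21 fits with a replicate or a library left out (0.38 to 0.65 over the 21) and under 3 of 10 other fits.

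The Mmp12 start peak at -0.419 kb was not called in any comparison and held between 3.22 and 6.32 CPM across the 18 libraries. The small peak at an internal start, +2.99 kb, rose with LPS from 0.870, 0.989 and 0.986 CPM to 2.30, 1.70 and 1.55 CPM (0.96, SE 0.31, adjusted p = 0.015), which was lost with total counts (0.74), without replicate 1 (0.73) or 2 (1.05) and without the unstimulated (0.91) or LPS (0.77) library of replicate 1. The intronic +17.3 kb peak closed with LPS, from 2.68, 1.98 and 1.86 CPM to 1.10, 0.549 and 0.478 CPM (-1.57, SE 0.37, adjusted p = 0.00059), and this held under every fit that tested the peak. IL-10 alone lowered it as well, to 0.885, 1.31 and 0.658 CPM (-1.18, adjusted p = 0.018), with 6 of 21 leave-out fits and loess offsets (-0.92) losing the call.

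Mmp19 encodes a metalloproteinase with a broad matrix range, and its start showed no called change. The start peak of Mmp19 (ENSMUSG00000025355.6, chr10:128228009-128237880), 6278 bases, held 15.8, 18.6 and 19.4 CPM in unstimulated, 15.9, 17.3 and 14.9 CPM in LPS, 16.0, 13.7 and 17.0 CPM in LPS + JQ1 and 22.6, 19.9 and 20.3 CPM in LPS + IL-10 libraries. The last 3 lay above all LPS libraries, at a log2 fold-change of 0.38 (adjusted p = 0.055). Of the 21 peaks, LPS raised 1 and lowered 1, and neither pretreatment under LPS called any (1 higher and 1 lower at an unadjusted p under 0.05 with JQ1, 2 and 1 with IL-10, and 0 in DESeq2). In cells without LPS, JQ1 raised 3 Mmp19 peaks and lowered 1 and IL-10 raised 4. Raised by both were the -11.0 kb peak and 2 peaks at the starts of the neighbours Dnajc14 (+14.1 kb) and Ormdl2 and Sarnp (+30.9 kb). IL-10 also raised the -17.4 kb peak, from 5.76, 5.66 and 7.45 CPM to 8.70, 9.04 and 9.72 CPM (0.54, adjusted p = 0.018), which was lost in 5 of 21 fits that left out libraries (0.46 to 0.68 over the 21) and under 3 of 10 other fits. The fall with JQ1 was at +22.8 kb, from 1.15 to 1.94 CPM down to 0.630 to 0.941 CPM (-1.07, adjusted p = 0.045). The -11.0 kb peak held 14.2, 17.7 and 24.2 CPM in unstimulated, 30.4, 33.1 and 33.1 CPM in JQ1 (0.78, adjusted p = 1.5e-05) and 36.2, 30.9 and 34.7 CPM in IL10 libraries (0.85, adjusted p = 8.4e-06). The unstimulated libraries differed among themselves by more here than the libraries of either treatment, and their order was that of their macrophage marker sums (203, 241 and 302 CPM in replicates 1 to 3). The part of this in the result was not tested. With loess offsets the log2 fold-changes were 0.28 and 0.49. At +14.1 kb the JQ1 rise of 0.72 became -0.06 with loess offsets, so its direction depends on the scaling. The interactions of LPS with JQ1 at -11.0, +14.1 and +30.9 kb were called at -0.65, -0.64 and -0.68, and in that order these calls were lost under 4, 5 and 4 of 10 other fits (-0.23, 0.0502 and -0.13 with loess offsets) and in 14, 13 and 7 of 21 fits that left out libraries.

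Timp1 encodes a secreted inhibitor of most metalloproteinases and lies within Syn1 on the X chromosome (ENSMUSG00000001131.5, chrX:20447292-20451861). LPS called 0 of its 6 peaks in edgeR and in DESeq2, with 1 higher and 1 lower at an unadjusted p under 0.05, and their median log2 fold-change was 0.37. LPS + IL-10 against LPS raised 2 of 6 and lowered 0, with a median of 0.73. The -7.32 kb peak held 4.92, 4.25 and 3.88 CPM in LPS and 6.76, 6.08 and 8.18 CPM in LPS + IL-10 libraries, without overlap (0.69, SE 0.18, adjusted p = 0.0039). This call was lost without replicate 3 (0.49), while the value without the LPS + IL-10 library of replicate 3 was 0.56 and was not called either. The same peak held 7.83, 5.95 and 6.13 CPM with LPS + JQ1 (0.59, adjusted p = 0.029), which was lost without any of the 3 replicates (0.57 to 0.64), without the LPS library of replicate 2 (0.57) or 3 (0.52) and without the LPS + JQ1 library of replicate 1 (0.47). In both cases the pretreated LPS libraries reached the unstimulated range of 5.49 to 6.48 CPM or above it, and LPS alone against unstimulated was not called there. The -1.04 kb peak held 0.322, 0.400 and 0.537 CPM in LPS and 1.17, 1.04 and 1.01 CPM in LPS + IL-10 libraries (1.36, SE 0.47, adjusted p = 0.046), and its call was lost in DESeq2 and in 11 of 21 leave-out fits. The peak over the start held 2.21, 1.05 and 1.20 CPM in LPS and 1.98, 2.96 and 2.80 CPM in LPS + IL-10 libraries and was not called (0.78, adjusted p = 0.074). It was called with total counts (0.85), in the fit of only the groups compared (0.80), with promoter and distal peaks apart (0.86), without replicate 1 (1.37) and without the LPS library of replicate 1 (1.20).

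**Figure D3:**
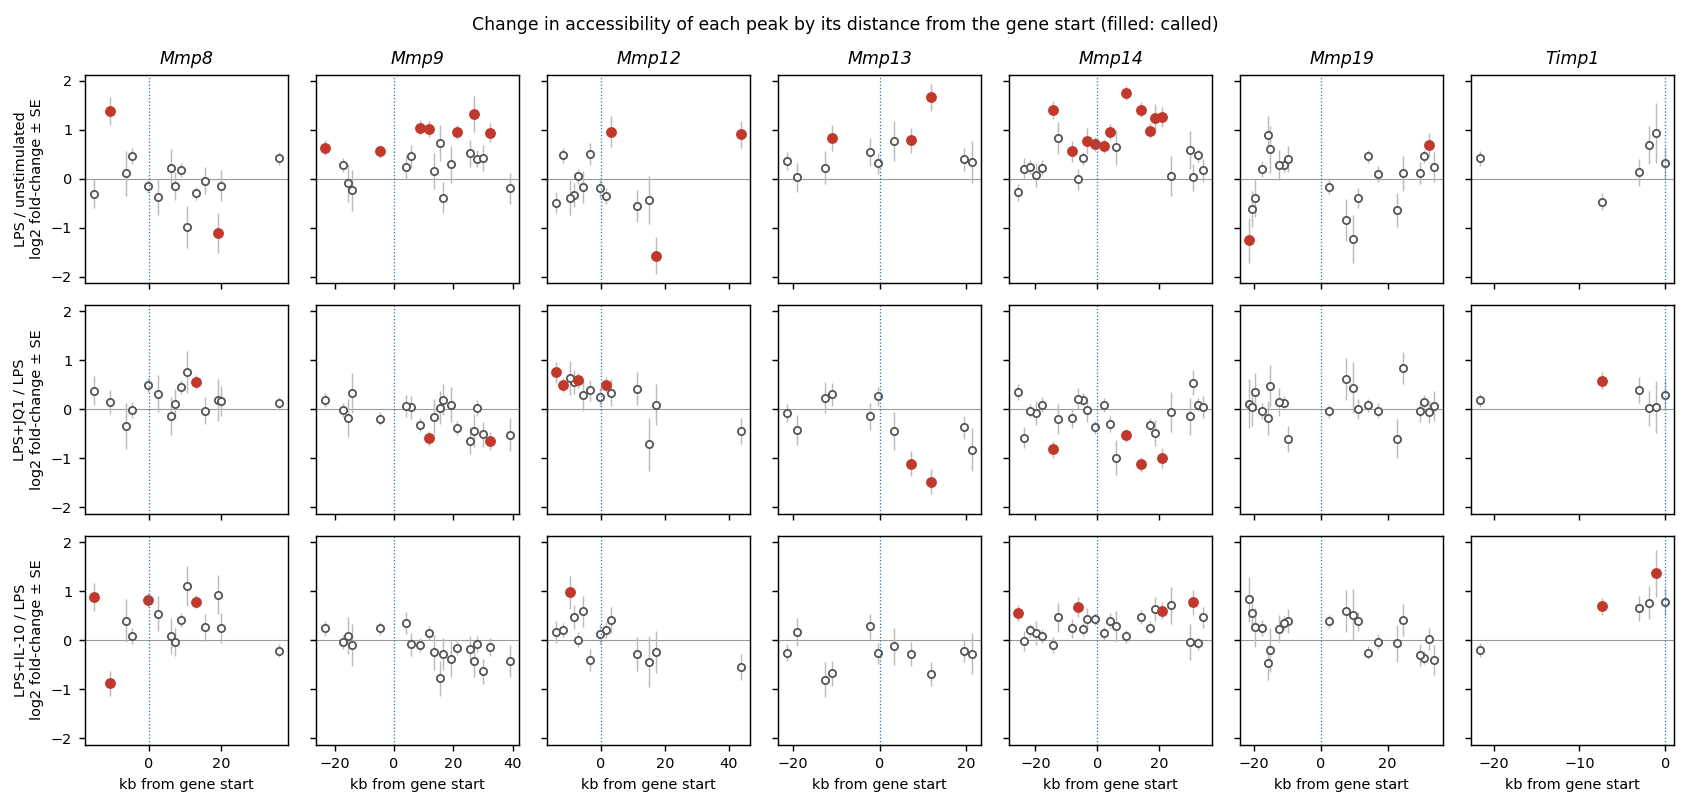
Log2 fold-change with its SE (vertical axis) of each member peak by the distance of its centre from the gene start in kb (horizontal axis; dotted line, the start), with 1 column per gene and 1 row per comparison; filled red points are called. Called LPS rises run from -14.3 to +20.8 kb at Mmp14, and the Mmp13 peaks at +7.18 and +11.8 kb rise with LPS and fall with LPS + JQ1.

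**Figure D4:**
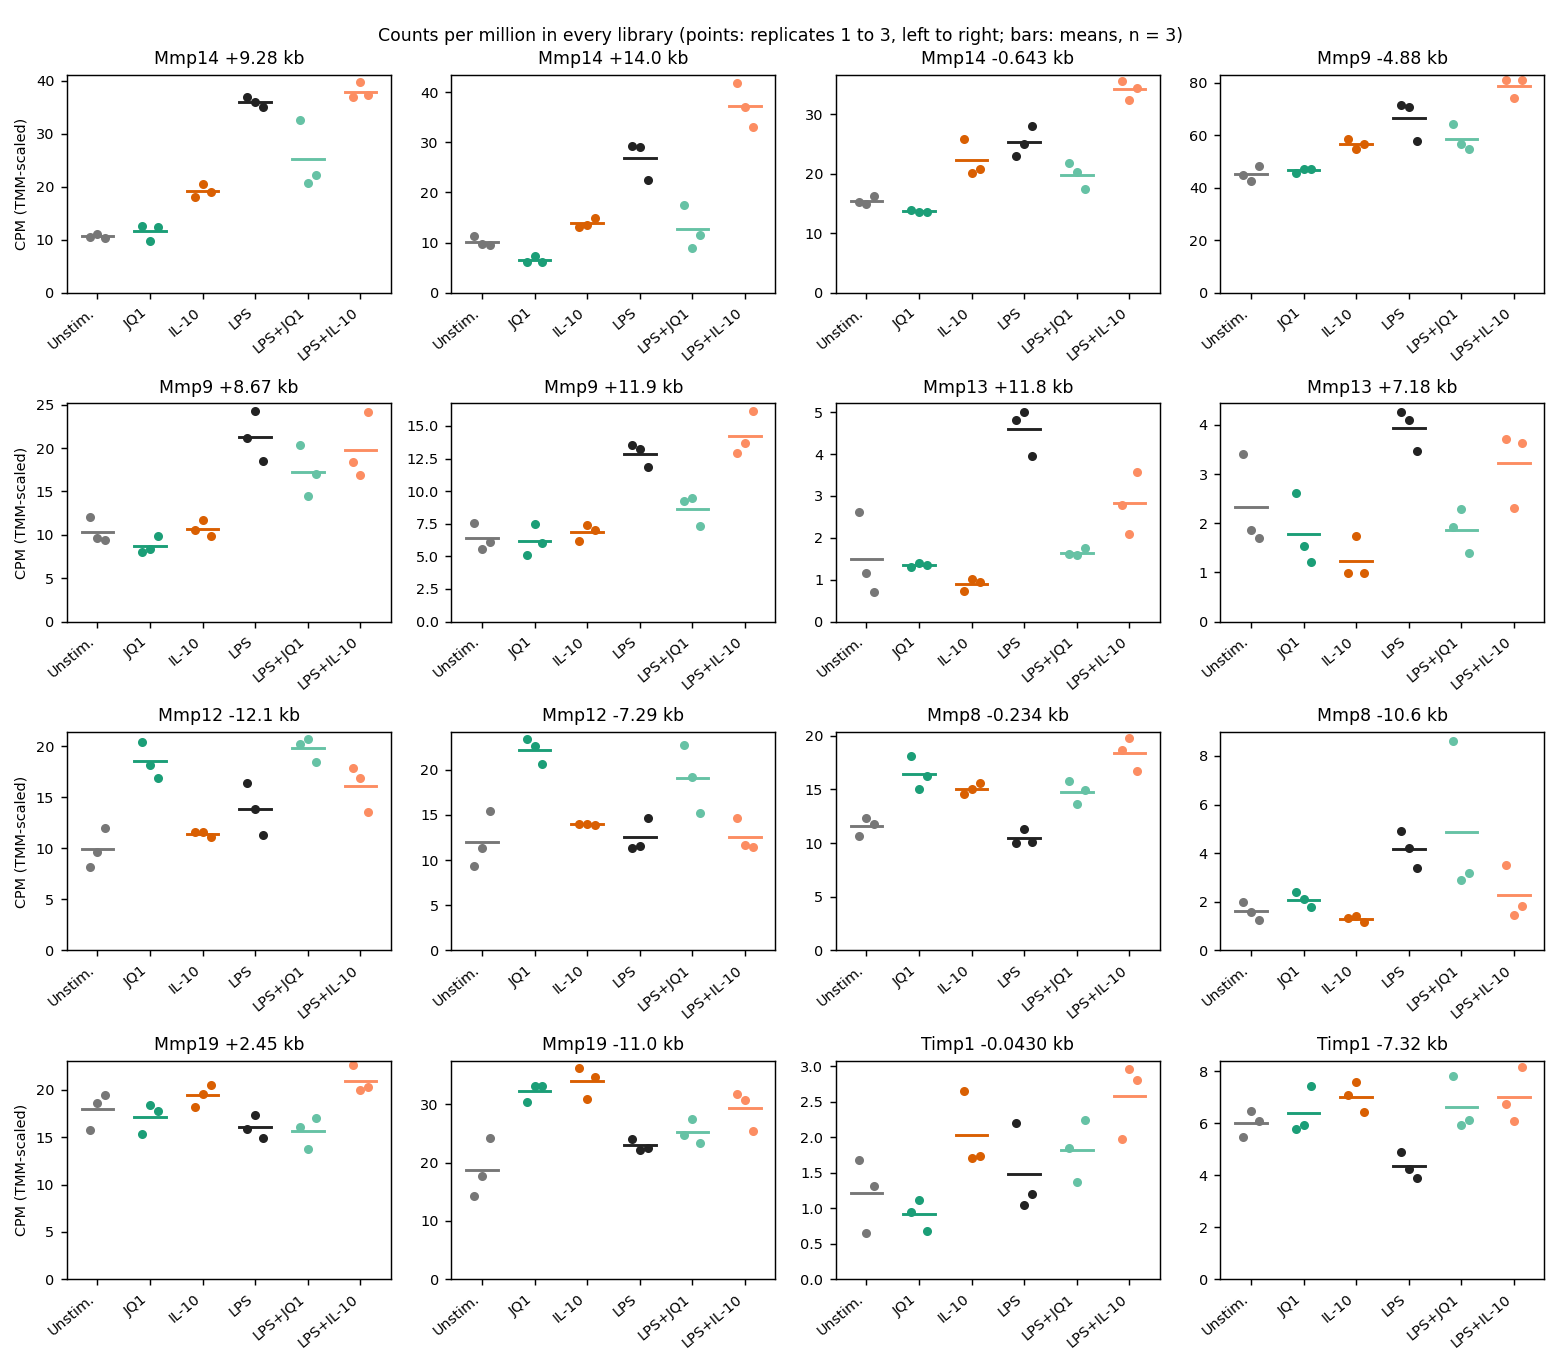
CPM after TMM scaling (vertical axis, from 0) in each of the 18 libraries for 16 named peaks, grouped by condition (horizontal axis); points are replicates 1 to 3 from left to right and bars are means of 3. At Mmp13 +11.8 kb the LPS libraries hold 3.94 to 4.99 CPM and the LPS + JQ1 libraries 1.58 to 1.75 CPM.

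The changes were not limited to promoters. Of the 39 member peaks in the authors' promoter set, LPS raised 13 and lowered 0, and of the 73 distal ones it raised 12 and lowered 3. Over all peaks of both kinds 11.7% were higher and 10.2% lower, and the shares for each kind apart were not worked out. The promoter set includes peaks with no start of the annotation used here in the promoter window, such as Mmp14 +14.0 and -14.3 kb. Among the 12 peaks at a member's own coding start, LPS raised 4, LPS + JQ1 raised 1 and LPS + IL-10 raised 2 (11.7%, 1.74% and 4.26% of all peaks). None of the 12 was lowered in these 3 comparisons (10.2%, 3.49% and 4.51% of all peaks). Of 19 peaks at the start of another gene, LPS raised 6, JQ1 alone 6 and IL-10 alone 4 (11.7%, 7.85% and 5.16% of all peaks). All peaks considered, the 300 bases at the centre held an AP-1 match in 12.1% and a kappaB match in 5.78%, against 13 and 5 of the 112 member peaks (11.6% and 4.46%). Of the 25 members higher with LPS, 5 held an AP-1 match and 4 a kappaB match, and of the other 87 members 8 and 1 did. IRF, STAT and PU.1 matches were held by 0, 1 and 1 of the 25 and by 5, 10 and 4 of the other 87. These splits were not tested. STAT matches were found in 8.73% of all peaks and in 11 of the 112 members (9.82%), IRF matches in 4.4% and 5 (4.46%), and PU.1 matches in 4.58% and 5 (4.46%).

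The other genes of the pathway were counted with the same window, without the member peaks. Over all peaks, 1.74% were higher and 3.49% lower with LPS + JQ1 against LPS, and 4.26% and 4.51% with LPS + IL-10 against LPS. Around 17 further metalloproteinase genes, 15 of which had a peak, 29 of 173 peaks were higher and 11 lower with LPS (16.8% and 6.36%, where 11.7% and 10.2% of all peaks were). They were 0 higher and 10 lower with LPS + JQ1 against LPS (0% and 5.78%) and 1 higher and 4 lower with LPS + IL-10 against LPS (0.578% and 2.31%). Around the other inhibitors Timp2, Timp3, Timp4 and Reck, 9 of 72 peaks were higher and 14 lower with LPS (12.5% and 19.4%, the former close to the share of all peaks). LPS + IL-10 against LPS called 3 higher and 1 lower there (4.17% and 1.39%, the former close to the share of all peaks). LPS + JQ1 called 0 in edgeR and in DESeq2, with 6 higher and 4 lower at an unadjusted p under 0.05. Around the genes of protease activation and surface control, such as Plau and Plaur (urokinase and its receptor) and Adam17 (a sheddase), 43 of 177 were higher and 11 lower with LPS (24.3% and 6.21%). With LPS + JQ1 3 were higher and 13 lower (1.69% and 7.34%), and with LPS + IL-10 7 and 12 (3.95% and 6.78%). Both shares of higher peaks were close to those of all peaks. The medians of these 3 lists with LPS were 0.09, -0.17 and 0.19. The peaks elsewhere whose 6 group means followed those of the Mmp14 +9.28 kb peak most closely were near Gtf3c5 (Pearson r = 0.999), Mmp24 (0.998) and 1700026D08Rik (0.998). Those closest to Mmp9 +8.67 kb were near Sec22b (0.999), Slc25a26 (0.999) and Spred1 (0.998), and those closest to Mmp13 +11.8 kb were near Trip13 (0.999), Fap (0.998) and Gm14446 (0.998). For Mmp12 +17.3 kb they were near 4933430H15Rik, Ccdc34 and Akap13 (0.998 to 0.999), for Mmp8 -10.6 kb near Klf1, Inpp1 and Bcar1 (0.996 to 0.997) and for Mmp19 +30.9 kb near Rab11b, Birc5 and Rab4b (0.999 to 1.00). These correlations are over 6 means picked as the closest of all peaks tested and carry no test.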

How the data were processed

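ATAC-seq was made from 18 BMDM libraries, 6 conditions with 3 replicates each, from 3 mice. Per the labels and methods, the authors aligned reads to mm9 with Bowtie2 in the PEPATAC pipeline, kept uniquely mapped reads, called peaks with MACS2 in each sample, merged them into a union set, split it with ChIPseeker into promoter (1000 bases before to 100 after a start) and distal peaks, and deposited raw read counts per peak. The counting tool is not given in the sources used here, nor is any trimming of a wide merged peak. The 6 count columns that match no described sample were not used. The deposited peak names were read with a start counted from 0, and positions here count from 1.

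Counts of the 194284 peaks were filtered with filterByExpr (194230 kept), scaled by TMM and fitted with edgeR 4.0.16 in R 4.3.3 (quasi-likelihood test, all 18 libraries, 6 group means, no block). Calls needed a Benjamini-Hochberg adjusted p under 0.05 and an absolute log2 fold-change above 0.5. CPM are TMM-scaled. The depth per library sets the precision, and counts cover 12020526 to 25908198 per library. Tested on simulated data for LPS against unstimulated, with 200 of 193295 peaks changed by 1.5 on the log2 scale, the test recovered 79% and made 11 false calls. The changed peaks were drawn only from those above a minimum expected count. Recovery of smaller changes and of changes at thin peaks was not measured, and such changes can be missed.

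Members and lists were chosen with earlier results of these data known. Values are printed for every peak at a member's coding start and for up to 4 called peaks per member with the smallest adjusted p, and a few other called peaks are named after their values were seen. Sequences are those of up to 6 such peaks, at most 2 per member, from mm9. The labels do not say that a replicate number is the same mouse in every condition, so the block is an alternative only. Alternatives were DESeq2 1.42.0, 3 other scalings, 2 other filters, the replicate block, the sequencing lane as a covariate, fits of only the groups compared, promoter and distal peaks apart, 3 other thresholds, 2 other windows and leaving out each replicate number or library. Replicates 1 and 3 were each sequenced within 1 lane, replicate 2 in lane 5 without LPS and lane 6 with LPS. Drawing used Python 3.11.15 and matplotlib 3.10.9. The B cell marker list and the peaks closest in pattern to Timp1 -21.6 kb are not reported here.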

Additional observations from a re-analysis of the deposited data

Results flagged for a closer look

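At 10 pairs of a peak and a pretreatment, the response to LPS differed between pretreated and other cells by the test of the interaction itself. Each difference was negative, meaning a smaller rise, a larger fall or a fall in place of a rise with LPS in pretreated cells. For JQ1 the peaks were Mmp13 +11.8 kb (-1.38), Mmp19 -11.0 kb (-0.65), Mmp19 +14.1 kb (-0.64) and Mmp19 +30.9 kb (-0.68). For IL-10 they were Mmp9 +32.4 kb (-1.002), Mmp14 +9.28 kb (-0.77), Mmp8 +36.1 kb (-0.61), Mmp19 +14.1 kb (-0.81), Mmp19 +30.9 kb (-0.94) and Timp1 -21.6 kb (-0.61). The Mmp8 +36.1 kb peak was picked out after its values were seen. At Mmp19 -11.0 kb, the unstimulated libraries held 14.2, 17.7 and 24.2 CPM and the LPS libraries 24.1, 22.2 and 22.5 CPM. The JQ1 libraries held 30.4, 33.1 and 33.1 CPM there and the LPS + JQ1 libraries 24.7, 27.4 and 23.4 CPM. Neither pretreatment under LPS was called against LPS at any Mmp19 peak. The same test over all peaks also called more peaks lower than higher, 6202 against 1261 for JQ1 and 11454 against 3907 for IL-10. The share called lower was 3.57% of the members and 3.19% of all peaks for JQ1, and 5.36% and 5.9% for IL-10. The members were thus close to the share of all peaks. With loess offsets 1 member was called lower for each, where 1083 of all peaks were called lower for JQ1 and 3907 for IL-10. The Mmp19 +14.1 kb, Mmp19 +30.9 kb and Timp1 -21.6 kb peaks lie at the starts of the neighbours Dnajc14, of Ormdl2 and Sarnp, and of Araf, and at each of them the 3 unstimulated libraries were spread more widely than the 3 JQ1 libraries, ranging from 39.8 to 59.2, 26.5 to 35.9 and 10.2 to 16.3 CPM.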

How the results depend on the processing

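Counts of called members held within 1.5 times their main value with DESeq2 size factors, with no filter and with lane as a covariate. Scaling to total counts gave 14 higher and 12 lower for LPS, 4 and 10 for JQ1 alone, 5 and 4 for IL-10 alone, 0 lower for the JQ1 interaction and 6 higher and 2 lower for the IL-10 interaction. Loess offsets gave 3 higher for LPS + JQ1, 2 lower for LPS + IL-10, 5 higher for JQ1 alone, 2 higher and 0 lower for IL-10 alone, 1 lower for the JQ1 interaction and 4 higher and 1 lower for the IL-10 interaction. The numbers called over all peaks moved with these 2 scalings too. Total counts, for instance, called 12785 of all peaks higher and 37571 lower for LPS, and 4674 and 1838 for the JQ1 interaction. Promoter and distal peaks fitted apart gave 5 lower for LPS, 8 higher and 7 lower for JQ1 alone, 1 lower for IL-10 alone, 1 higher and 1 lower for the JQ1 interaction and 5 higher for the IL-10 interaction. A minimum of 10 counts in every library gave 2 lower for LPS + IL-10, 8 higher for IL-10 alone and 2 higher for the IL-10 interaction, with fewer peaks tested. Fits of only the groups compared gave 3 lower for LPS + IL-10, 1 lower for IL-10 alone and 0 lower for the JQ1 interaction. DESeq2 gave 0 lower for LPS + IL-10, 1 lower for IL-10 alone and 11 lower for the JQ1 interaction. For that interaction DESeq2 called 9935 of all peaks lower, against 6202 in the main fit. An adjusted p under 0.01 left 1 lower for LPS, 2 higher for LPS + JQ1, 3 higher and 0 lower for LPS + IL-10, 1 lower for JQ1 alone, 0 lower for IL-10 alone and 0 for the JQ1 interaction. An absolute log2 fold-change above 1 left 10 higher for LPS, 0 higher and 3 lower for LPS + JQ1, 1 higher and 0 lower for LPS + IL-10, 0 higher for JQ1 alone, 0 higher and 1 lower for IL-10 alone and 1 lower for each interaction. A window of 10 kb left 6 higher for JQ1 alone, 7 higher for IL-10 alone and 2 lower for each interaction, and 25 kb around the start only left 3 lower for the IL-10 interaction. Apart from the smaller windows and stricter thresholds, the cause was not tested.

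The replicate number was not shown to pair the libraries. Deviations from the group means correlated at a mean r of 0.00573 over 45 pairs with the same number and -0.00286 over 90 others, and 9 of 18 libraries correlated best with one of their own number. With the replicate block the JQ1 interaction called 2 lower in place of 4, and the counts of the other comparisons stayed within 1.5 times. Of 65 calls at named peaks, 63 were kept with the block (not the JQ1 interactions at Mmp19 -11.0 and +14.1 kb, adjusted p = 0.0572 and 0.0574), and 10 were kept under every alternative. Loess offsets reversed 4 named values, to -0.72 for JQ1 alone at Mmp9 -4.88 kb, 0.68 for the IL-10 interaction there, -0.061 for JQ1 alone at Mmp19 +14.1 kb and 0.0502 for its JQ1 interaction.

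Leaving out 1 replicate number or 1 library in turn gave 18 to 29 higher and 1 to 4 lower for LPS, 0 to 7 higher and 3 to 8 lower for LPS + JQ1, 3 to 10 higher and 0 to 2 lower for LPS + IL-10, 5 to 15 higher and 0 to 4 lower for JQ1 alone, 3 to 17 higher and 0 to 5 lower for IL-10 alone, 0 to 11 lower for the JQ1 interaction and 0 to 1 higher and 0 to 12 lower for the IL-10 interaction. Without replicate 2, LPS + JQ1 raised 0. Without the unstimulated library of replicate 3 the interactions called 11 and 12 lower. Few counts limit peaks such as Timp1 -1.04 kb and Mmp12 +17.3 kb.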
